A study of Rattus norvegicus with 12 samples.

Results

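Genes that stabilise or dissolve the fibrin clot were examined in the fracture hematoma of rats. The 9 genes were the plasminogen activators Plau and Plat, the cell-surface partners Plaur and Anxa2, the protease inhibitors Serpine2 and Serpinb2, the clotting genes F3 and F13a1, and Thbd, which restrains clotting. They were taken from a list of symbols and stand among 14217 genes that had a probe set of 1 symbol on the array. For each gene the probe set of highest mean signal over the 12 arrays was used, and the other probe sets of the same gene, which bring the total to 15 probe sets, are described beside it.

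The left femur of female Sprague-Dawley rats was cut at midshaft, held open at a gap of 1.5 mm by an external fixator, and the hematoma between the fragments was taken on day 3. The groups compared were old rats with a semi-rigid fixator (OSR), old rats with a rigid fixator (OR), young rats with a semi-rigid fixator (YSR) and young rats with a rigid fixator (YR). Old rats were 52 weeks and young rats 12 weeks of age, and the distance between fixator and bone was 15 mm in the semi-rigid and 7.5 mm in the rigid configuration. All groups shared the osteotomy, and no group without an osteotomy was analysed here. Each array carried a pool of RNA from 3 animals and each group had 3 such pools (9 animals), so that a value is an average over 3 animals and the number of arrays limits the precision.

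A fracture hematoma begins as a clot. Tissue factor, the product of F3, starts the clotting cascade, thrombin turns fibrinogen into fibrin, and factor XIII links the fibrin strands to each other. The clot is later cleared by plasmin, which urokinase (Plau) and tissue-type plasminogen activator (Plat) release from plasminogen, often at the surface of cells that carry the urokinase receptor (Plaur) or annexin A2 (Anxa2). Serpins such as the products of Serpine2 and Serpinb2 block these proteases, and thrombomodulin (Thbd) on endothelial cells turns thrombin from a clotting enzyme into an activator of the anticoagulant protein C. In a bone defect the fibrin network also serves as the first scaffold into which cells migrate.

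RefSeq promoter windows of 300 bases (build GRCr8, from 250 bases before to 50 bases after the start that the promoter table uses) were found for 6 of the 9 genes, all but Plat, F3 and Thbd. For Serpine2 and Serpinb2 that start lies inside the outer bounds of the gene in the RefSeq gene table, so that these windows need not be the outermost promoter, and the Serpinb2 window was not described further. The windows of Plau, Plaur and Serpine2 are shown because urokinase, its receptor and its inhibitor Serpine2 act on one another and because Plau and Serpine2 had the lowest and the highest old minus young difference among the 9 genes. Capitals mark matches, on either strand, to GGGCGG (a GC box) or TGANTCA (an AP-1 site).
Plau, chr15:3511938-3512237, minus strand: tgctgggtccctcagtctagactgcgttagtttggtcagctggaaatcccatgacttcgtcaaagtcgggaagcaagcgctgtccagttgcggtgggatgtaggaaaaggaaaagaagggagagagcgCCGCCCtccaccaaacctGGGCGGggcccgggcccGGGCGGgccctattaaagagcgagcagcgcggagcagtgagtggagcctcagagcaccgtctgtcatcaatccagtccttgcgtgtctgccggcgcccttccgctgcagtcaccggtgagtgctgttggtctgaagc
Plaur, chr1:89181113-89181412, plus strand: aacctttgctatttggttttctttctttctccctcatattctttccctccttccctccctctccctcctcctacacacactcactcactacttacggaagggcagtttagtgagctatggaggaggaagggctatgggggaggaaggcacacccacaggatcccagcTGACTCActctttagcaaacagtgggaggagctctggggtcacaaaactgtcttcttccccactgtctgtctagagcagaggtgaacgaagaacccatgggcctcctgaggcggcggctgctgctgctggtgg
Serpine2, chr9:88637153-88637452, minus strand: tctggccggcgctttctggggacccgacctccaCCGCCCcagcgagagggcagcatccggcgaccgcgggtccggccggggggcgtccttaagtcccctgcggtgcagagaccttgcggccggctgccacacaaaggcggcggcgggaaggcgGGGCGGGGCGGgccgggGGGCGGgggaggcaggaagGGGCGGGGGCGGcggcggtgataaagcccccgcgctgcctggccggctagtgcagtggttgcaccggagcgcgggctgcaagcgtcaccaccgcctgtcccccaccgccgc
The Plau window held 3 GC boxes and the Serpine2 window held 6, of which the pair at positions -97 and -92 share a base, while the Plaur window held none. The Plaur window held 1 AP-1 site, TGACTCA, whose first base lies 83 bases before that start, and the Plau and Serpine2 windows held none. Of 33469 promoters of the same length, 33.1% held a GC box and 7.33% an AP-1 site. The Anxa2 window held an AP-1 site (TGAGTCA), 2 GC boxes and a TATA box, spelled TATAAA and found in 14.2% of promoters. None of these 3 motifs was found in the F13a1 window. These are matches of letters only.

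Signals are linear intensities on a scale shared by all arrays, given here as log2, and differences are log2 differences in which the group named later is subtracted. Array medians lay between 126.9 and 167.5. RNA integrity was read from Gapdh, whose control probes at the 3′ end outshine those at the 5′ end where RNA is broken down. Their log2 ratio was 6.69 on YSR array 1 and 2.95 on OR array 1. It was 1.02 to 1.59 on the YR arrays and 0.33 to 0.49 on the remaining 7. These ratios are given again beside the genes with which they moved. Markers of the cells of a hematoma were measured in all groups. The brightest probe set lay at or above the median of all probe sets (7.16) for 9 of 9 monocyte and macrophage genes, 9 of 9 fibroblast and matrix genes, 8 of 8 endothelial genes, 6 of 6 erythroid genes, 5 of 6 platelet genes, 4 of 5 neutrophil genes and 8 of 9 skeletal muscle genes. The mean log2 signal of the muscle genes ranged from 7.18 to 12.95 in OSR, 7.27 to 11.88 in OR, 10.79 to 12.30 in YSR and 11.31 to 11.86 in YR, so that the ranges were wider in old rats. In such bulk tissue, fewer cells of a type and less RNA per cell cannot be told apart.

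No difference of the 9 genes passed an adjusted p of 0.05 in any of the 7 comparisons (limma, adjusted over 31042 probe sets). The 7 comparisons were age in each fixation, fixation at each age, age averaged over fixation, fixation averaged over age, and the interaction, which is the difference OSR minus OR from which the difference YSR minus YR is subtracted. The share of all probe sets called was 0.00322% for OSR vs YSR and for OR vs YR, 0.00644% for old vs young, and 0.0% for the other 4, so that the absence of calls among 9 genes does not set them apart. At an unadjusted p under 0.05, 4 of the 9 differed between old and young, Plat, Serpine2 and Thbd with higher signal in old rats (4.70% of all probe sets) and Plau with lower signal (3.89%). In either direction this was 4 of 9, against 8.59% of all probe sets. Among the 15521 probe sets left by a filter on dim ones, 1801 had such a p for old vs young. The 9 genes were chosen with earlier results of these data known, so that their counts are a description and not a test of the set. The count was 2 of 9 for OR vs YR (8.34%), 2 of 9 for OSR vs OR (5.26%), 1 of 9 for OSR vs YSR (4.36%), 1 of 9 for semi-rigid vs rigid (5.73%), 0 of 9 for YSR vs YR (4.37%) and 0 of 9 for the interaction (3.80%). With the methods' test, an analysis of variance without shared variance, adjusted calls were also 0 in all 7, and unadjusted counts were 2 for old vs young, 1 each for OR vs YR, OSR vs OR, OSR vs YSR and semi-rigid vs rigid, and 0 for YSR vs YR and the interaction. The signals of the 2 groups did not overlap for 1 of 9 genes in OSR vs YSR (Thbd, higher, against 4.08% of all probe sets higher and 8.98% in either direction), 1 of 9 in OR vs YR (Serpine2, higher, 7.75% and 13.8%), 1 of 9 in OSR vs OR (F13a1, higher, 5.04% and 10.8%), and none in YSR vs YR (9.38%), old vs young (0.399%) or semi-rigid vs rigid (0.254%).

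**Figure D1:**
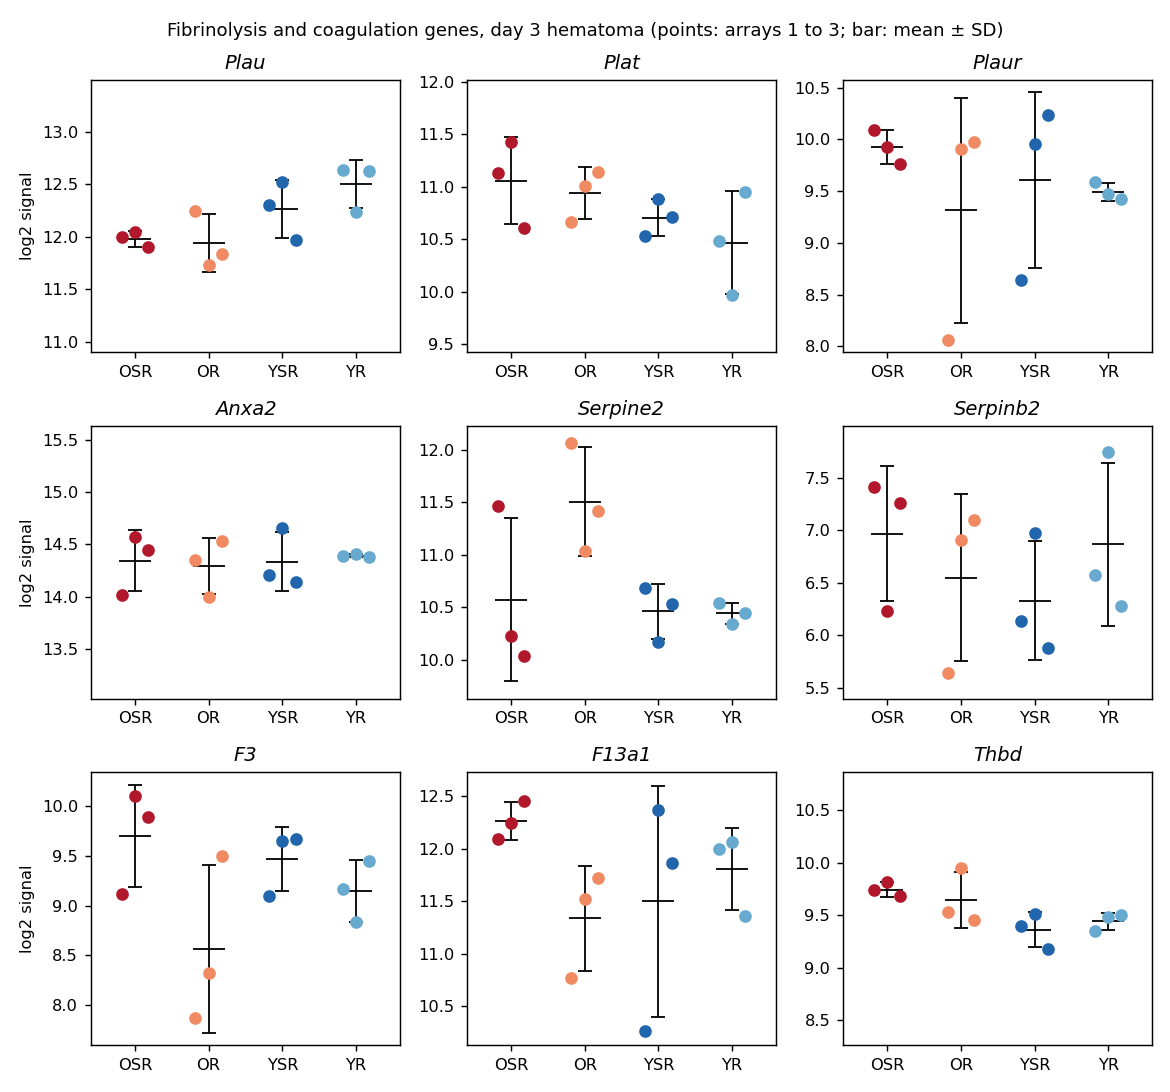
Log2 signal of the brightest probe set of each of the 9 genes (vertical axes) on each of the 12 arrays, by group (horizontal axes, OSR, OR, YSR, YR from left to right). Points are arrays 1 to 3 from left to right and the black marks are the group mean ± SD; Serpine2 was 11.03 to 12.06 in OR and 10.34 to 10.54 in YR, and the low Plaur points are OR array 1 (8.06) and YSR array 1 (8.64).

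At their brightest probe sets, the plasminogen activators leaned in opposite directions with age. Plau, which encodes urokinase, had log2 signals of 12.00, 12.05 and 11.90 in OSR and 12.25, 11.73 and 11.84 in OR. The young groups had 12.30, 12.52 and 11.97 in YSR and 12.64, 12.24 and 12.63 in YR. The group means were 11.98 ± 0.08 in OSR, 11.94 ± 0.27 in OR, 12.26 ± 0.28 in YSR and 12.50 ± 0.23 in YR (SD, n = 3 arrays each), which correspond to geometric mean signals of 4049, 3931, 4912 and 5804. Thus 3 of 6 old arrays lay below every young array, and the ranges overlapped at 11.97 to 12.25. The difference between old and young was -0.42 (standard error 0.12, a 1.34-fold lower signal in old rats, adjusted p = 0.324 with limma). Under rigid fixation, OR minus YR was -0.56 (standard error 0.17, adjusted p = 0.375 with limma), and under semi-rigid fixation OSR minus YSR was -0.28. These differ by 0.28, the interaction, at a standard error of 0.25 (adjusted p = 0.990 with limma). YR had the highest mean Plau signal and Gapdh ratios above those of all other arrays but 2, while within YR the array of highest ratio (1.59) had the lowest Plau signal (12.24). The part of the ratio in the difference was not tested.

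The second probe set of Plau did not follow the first over the arrays (r = 0.09, 12 arrays, as a description). Its log2 signals were 11.09, 10.79 and 10.66 in OSR, 9.90, 10.57 and 10.49 in OR, 8.20, 11.01 and 10.78 in YSR, and 11.01, 10.62 and 11.44 in YR. Both arrays of high Gapdh ratio lay below the other 10 at this probe set (8.20 and 9.90, against 10.49 to 11.44), whereas at the first they were within the range of the others (12.30 and 12.25, against 11.73 to 12.64). OR lay below YR at both probe sets, by 0.56 at the first and 0.71 at the second. At the second these groups did not overlap (13.8% of all probe sets in either direction). OSR minus OR was 0.53 at the second, also without overlap (10.8%), and 0.04 at the first. The 2 probe sets differed in direction for OSR minus YSR, with 0.85 at the second and -0.28 at the first. The mean old minus young difference was 0.07 at the second probe set, against -0.42 at the first. The 0.07 includes YSR array 1 (8.20) and OR array 1 (9.90), both of high Gapdh ratio. On the remaining arrays the second probe set had 10.49 to 11.09 in old rats and 10.62 to 11.44 in young rats. The part of the ratio in the 0.07 was not tested, so that the second probe set does not settle the direction with age.

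Plat, the tissue-type activator that endothelial cells release and that acts mainly on fibrin, had log2 signals of 11.13, 11.43 and 10.61 in OSR and 10.66, 11.01 and 11.14 in OR. In young rats they were 10.53, 10.88 and 10.71 in YSR and 10.48, 9.97 and 10.95 in YR. Of the old arrays 4 of 6 lay above every young array, and the ranges overlapped. The group means were 11.06 ± 0.41 in OSR, 10.94 ± 0.25 in OR, 10.70 ± 0.17 in YSR and 10.47 ± 0.49 in YR (SD, n = 3 arrays each). The old minus young difference was 0.41 (standard error 0.18, 1.33-fold, adjusted p = 0.541 with limma), and the other 6 comparisons gave -0.11 to 0.47. All 8 endothelial markers also had an old minus young difference above 0 (median 0.45), against 53.1% of all probe sets. Between the fixations they differed from Plat in direction. For OSR minus OR, 0 of 8 lay above 0 (median -0.88, against 48.8% of all probe sets), where Plat gave 0.12. For semi-rigid minus rigid, 0 of 8 did (median -0.57, against 50.5%), where Plat gave 0.18. The part of endothelial cells in the Plat difference was not tested. Plat had 1 probe set.

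At their brightest probe sets, the groups overlapped in every comparison made for both of the cell-surface partners. Plaur, the receptor that holds urokinase at the cell surface, had log2 signals of 10.09, 9.93 and 9.76 in OSR and 8.06, 9.91 and 9.97 in OR. The young rats had 8.64, 9.95 and 10.23 in YSR and 9.59, 9.47 and 9.42 in YR. All OSR arrays thus lay above all YR arrays, but these groups differ in both age and fixation and were not compared. The low values of OR and YSR belonged to array 1 of each, the 2 arrays with the highest Gapdh ratios, and they were the only ones below 9.42. The comparison of smallest p, OSR minus OR, was 0.61 (standard error 0.47, adjusted p = 0.912 with limma) and became -0.01 without OR array 1. The other 6 comparisons gave -0.18 to 0.50. The second Plaur probe set was dim (mean 4.86), had r = 0.13 with the first over the arrays, and gave larger differences. Its log2 signals were 6.05, 6.53 and 5.28 in OSR, 6.0, 3.99 and 5.77 in OR, 4.27, 6.45 and 4.68 in YSR, and 4.10, 3.32 and 1.89 in YR, so that all YSR arrays lay above all YR arrays. It gave 2.15 for OR minus YR (standard error 0.82, adjusted p = 0.522 with limma) and 2.03 for YSR minus YR (standard error 0.82, adjusted p = 0.991 with limma). Old minus young was 1.48 (standard error 0.58, adjusted p = 0.496 with limma) and semi-rigid minus rigid 1.37 (standard error 0.58, adjusted p = 0.845 with limma). The unadjusted p of these 4 was under 0.05, and none passed after adjustment.

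Anxa2, which with its partner S100a10 binds plasminogen and its tissue-type activator, showed the smallest spread over arrays of the 9 genes, 0.66 between the lowest and the highest log2 signal. It was 14.02, 14.57 and 14.45 in OSR, 14.35, 14.00 and 14.53 in OR, 14.21, 14.66 and 14.14 in YSR, and 14.39, 14.41 and 14.38 in YR. The group means lay between 14.30 and 14.39. The difference of smallest p was -0.10 for OR minus YR (standard error 0.19, adjusted p = 0.934 with limma), and the other 6 comparisons gave -0.05 to 0.10. S100a10 was the gene whose signals resembled Anxa2 most among 9563 genes (r = 0.90 over 12 arrays, also 0.90 without the 2 arrays of high Gapdh ratio). Its group means were 14.35 ± 0.19 in OSR, 14.33 ± 0.15 in OR, 14.39 ± 0.18 in YSR and 14.51 ± 0.02 in YR (SD, n = 3 arrays each). The second Anxa2 probe set was dim (mean 5.71), ran the other way over the arrays (r = -0.39), and gave 0.19 for OR minus YR.

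Of the inhibitors, Serpine2 was highest in OR. Serpine2 encodes protease nexin, a serpin that blocks thrombin and urokinase at the surface of mesenchymal cells. It had log2 signals of 11.46, 10.22 and 10.03 in OSR and 12.06, 11.03 and 11.42 in OR. The values were 10.68, 10.17 and 10.53 in YSR and 10.54, 10.34 and 10.44 in YR. All OR arrays lay above all young arrays, and in OSR only array 1 did. The group means were 10.57 ± 0.77 in OSR, 11.50 ± 0.52 in OR, 10.46 ± 0.26 in YSR and 10.44 ± 0.10 in YR (SD, n = 3 arrays each). OR exceeded YR by 1.06 (standard error 0.33, 2.09-fold, adjusted p = 0.376 with limma), and by 0.79 without OR array 1. OR array 1, of high Gapdh ratio (2.95), had the highest signal of the 12 arrays (12.06). YSR array 1, of ratio 6.69, had the highest signal of YSR (10.68). OSR minus OR was -0.93 (standard error 0.33, adjusted p = 0.896 with limma), with -1.38 without OSR array 1 and -0.66 without OR array 1. The old minus young difference was 0.59 (standard error 0.23, adjusted p = 0.504 with limma) and 0.37 without OSR array 1. The remaining 4 comparisons gave -0.95, for the interaction, to 0.11.

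Markers of other cells were read beside Serpine2. The 2 genes most like it over the arrays were Fgfr2 (r = 0.97), a fibroblast growth factor receptor, and Myh11 (r = 0.93), the myosin heavy chain of smooth muscle. The summed signal of the 8 endothelial markers (log2) was 12.30 to 13.29 in OSR, 12.92 to 13.82 in OR, 12.32 to 12.60 in YSR and 12.54 to 12.72 in YR. The sum of the 9 fibroblast and matrix markers was 16.87 to 17.48 in OSR, 17.29 to 17.60 in OR, 17.10 to 17.31 in YSR and 16.92 to 17.33 in YR. On OSR array 1, the OSR array of high Serpine2 signal, the muscle markers averaged 7.18, against 12.95 and 11.48 on the other OSR arrays, and the endothelial markers averaged 10.16, against 9.44 and 9.04. In OR the order differed: array 1, of highest Serpine2 signal (12.06), had the highest muscle mean (11.88) and an endothelial mean of 10.25, and array 2, of lowest Serpine2 signal (11.03), had the lowest muscle mean (7.27) and the highest endothelial mean (10.71). OR array 3 had a muscle mean of 9.38 and an endothelial mean of 9.79. The part of the cell content and of the Gapdh ratio in the Serpine2 differences was not tested.

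Serpinb2, an inhibitor of urokinase made by macrophages among other cells, was the only one of the 9 genes with a mean below the median of all probe sets (6.68, against 7.16). It had log2 signals of 7.41, 6.23 and 7.26 in OSR, 5.64, 6.91 and 7.10 in OR, 6.14, 6.97 and 5.88 in YSR, and 6.57, 7.75 and 6.28 in YR. All 4 groups overlapped. The comparison of smallest p was the interaction, with 0.95 (standard error 0.76, adjusted p = 0.990 with limma) and 0.40 without the 2 arrays of high Gapdh ratio. The other 6 comparisons gave -0.54 to 0.64.

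Among the clotting genes, F3 was lowest on average in OR. F3, which encodes tissue factor, had log2 signals of 9.12, 10.10 and 9.89 in OSR and 7.87, 8.32 and 9.50 in OR. The young arrays had 9.10, 9.65 and 9.67 in YSR and 9.17, 8.83 and 9.45 in YR. Arrays 1 and 2 of OR were the lowest of the 12, and OR array 3 lay within the range of OSR. Of these, OR array 1 was an array of high Gapdh ratio (2.95), whereas the ratio of OR array 2 was 0.43. The group means were 9.70 ± 0.51 in OSR, 8.56 ± 0.84 in OR, 9.47 ± 0.32 in YSR and 9.15 ± 0.31 in YR (SD, n = 3 arrays each). OSR exceeded OR by 1.14 (standard error 0.37, 2.20-fold, adjusted p = 0.896 with limma), and by 0.79 without OR array 1. Averaged over age, the semi-rigid groups exceeded the rigid groups by 0.73 (standard error 0.26, 1.66-fold, adjusted p = 0.845 with limma). The other 5 comparisons gave -0.59 to 0.82. F3 had 1 probe set, and the genes most like it were Pde3b (r = 0.97), a phosphodiesterase, and Plod1 (r = 0.92), a lysyl hydroxylase of collagen.

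F13a1, the catalytic subunit of factor XIII, which macrophages and platelets carry, had log2 signals of 12.09, 12.24 and 12.45 in OSR and 10.77, 11.52 and 11.72 in OR. In young rats they were 10.26, 12.37 and 11.86 in YSR and 12.00, 12.06 and 11.36 in YR. All OSR arrays lay above all OR arrays, and the lowest values of OR and YSR again belonged to the arrays of high Gapdh ratio. The group means were 12.26 ± 0.18 in OSR, 11.34 ± 0.50 in OR, 11.49 ± 1.10 in YSR and 11.80 ± 0.39 in YR (SD, n = 3 arrays each). OSR minus OR was 0.92 (standard error 0.43, 1.90-fold, adjusted p = 0.901 with limma) and 0.64 without OR array 1. The other 6 comparisons gave -0.47 to 1.23, the last for the interaction. The second probe set ran with the first (r = 0.90 over 12 arrays), and there OSR minus OR was 0.51 (standard error 0.55). Its groups overlapped, at 10.62, 10.73 and 11.20 in OSR, against 9.80, 10.20 and 11.03 in OR. At this probe set the lowest mean was that of YSR (9.97 ± 1.50, against 10.34 ± 0.63 in OR; SD, n = 3 arrays each), and at the first probe set the OR and YSR means lay within their spread.

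The mean of the monocyte and macrophage markers, like that of F3, was lowest in OR. Their summed signal (9 genes, log2) was 15.90 to 16.32 in OSR, 15.81 to 16.36 in OR, 16.10 to 16.46 in YSR and 16.18 to 16.45 in YR, and their mean log2 signal was 11.28 to 11.77 in OSR, 10.82 to 11.49 in OR, 11.72 to 11.86 in YSR and 11.46 to 11.73 in YR. The mean was lowest of all 12 arrays on OR arrays 2 (10.82) and 1 (11.13), the same arrays on which F3 was lowest. The summed signal of the 6 platelet markers was 14.51 to 15.16 in OSR, 14.70 to 15.10 in OR, 13.78 to 14.78 in YSR and 14.11 to 15.24 in YR. The part of these cells and of the Gapdh ratio in the F3 and F13a1 values was not tested.

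**Figure D2:**
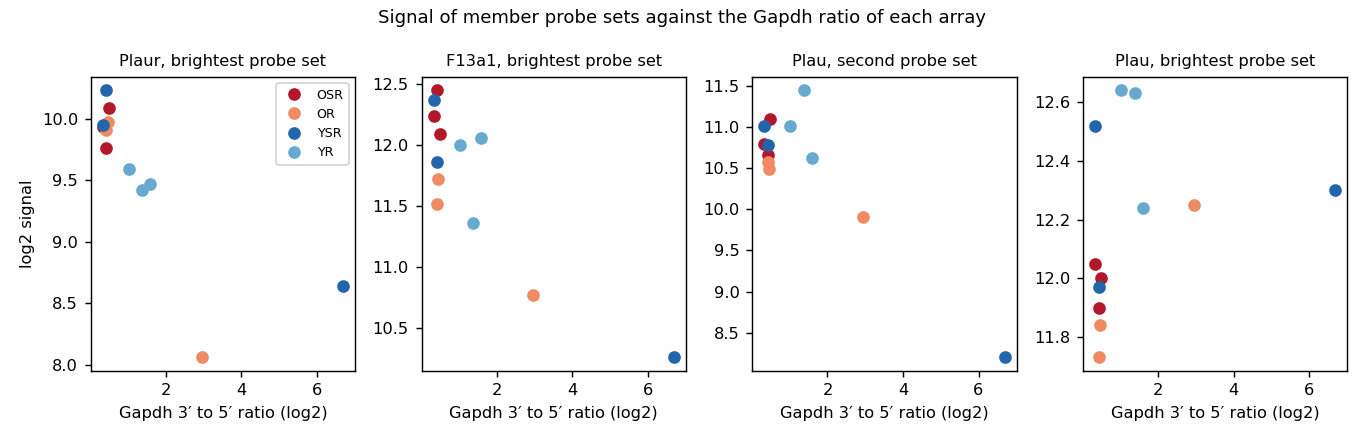
Log2 signal (vertical axes) of the brightest probe sets of Plaur and F13a1 and of the second and the brightest probe set of Plau against the Gapdh 3′ to 5′ ratio (log2, horizontal axes); each point is 1 of the 12 arrays and the colours are the 4 groups. YSR array 1 (ratio 6.69) and OR array 1 (ratio 2.95) lie below the other 10 arrays in the first 3 panels and within their range in the fourth.

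Thbd, which encodes thrombomodulin, leaned slightly upward with age. It had log2 signals of 9.74, 9.82 and 9.68 in OSR and 9.53, 9.95 and 9.46 in OR. Signals were 9.40, 9.51 and 9.18 in YSR and 9.35, 9.48 and 9.50 in YR. Of the old arrays 5 of 6 lay above every young array, and all OSR arrays lay above all YSR arrays. The group means were 9.75 ± 0.07 in OSR, 9.65 ± 0.27 in OR, 9.36 ± 0.17 in YSR and 9.44 ± 0.08 in YR (SD, n = 3 arrays each). OSR exceeded YSR by 0.38 (standard error 0.15, 1.31-fold, adjusted p = 0.959 with limma). Old minus young was 0.30 (standard error 0.11, 1.23-fold, adjusted p = 0.460 with limma), and the other 5 comparisons gave -0.08 to 0.21. When arrays were centred on their median, which lowers every old minus young difference by 0.11, the value was 0.19.

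The second Thbd probe set (r = 0.52 with the first) gave 0.76 for OSR minus YSR (standard error 0.37), again without overlap, and -0.17 for OR minus YR, where the first gave 0.21. OR array 1, of high Gapdh ratio (2.95), had 6.31 at the second probe set. The other OR arrays had 7.73 and 7.87 there, and the YR arrays 7.39 to 7.57. The part of the ratio in the -0.17 was not tested. The third probe set was dim (mean 4.21). The endothelial markers, whose cells carry thrombomodulin, had a mean log2 signal of 9.04 to 10.16 in OSR, 9.79 to 10.71 in OR, 9.17 to 9.49 in YSR and 9.41 to 9.61 in YR. All 8 of them had an old minus young difference above 0 (median 0.45), against 53.1% of all probe sets. For OR minus YR 8 of 8 lay above 0 (median 0.76), against 54.2% of all probe sets. For OSR minus YSR, where the Thbd signals did not overlap, 5 of 8 did (median 0.23), against 50.2%. For OSR minus OR, 0 of 8 did (median -0.88, against 48.8%), where Thbd gave 0.10. For semi-rigid minus rigid, 0 of 8 did (median -0.57, against 50.5%), where Thbd gave 0.01. The part of endothelial cells in the Thbd difference was not tested.

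**Figure D3:**
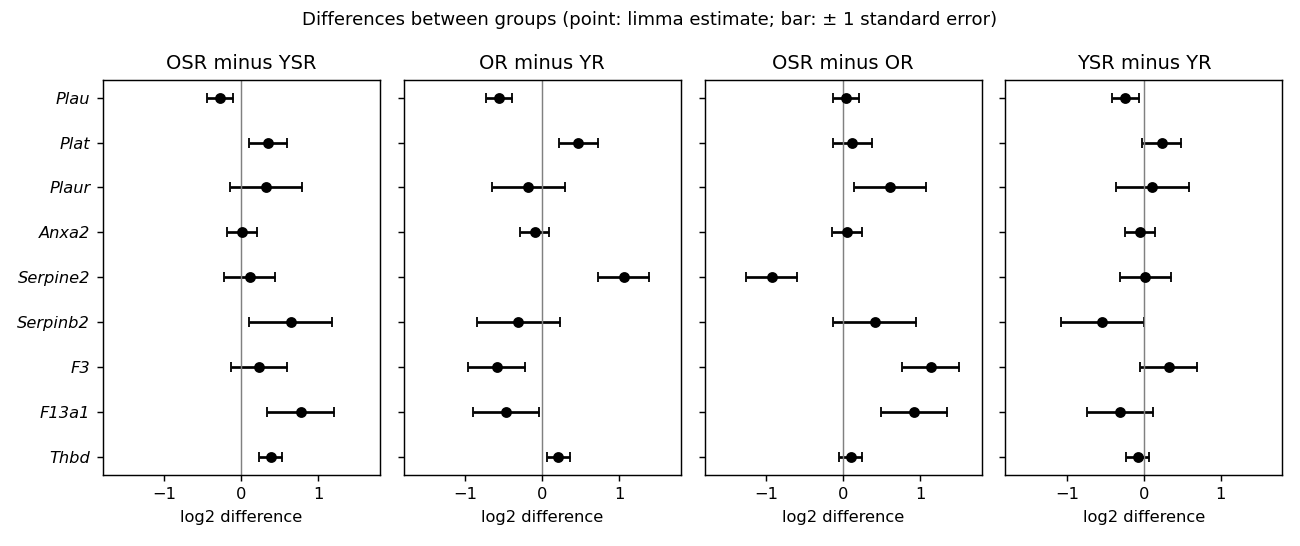
Log2 differences of the 9 genes (rows) in the 4 comparisons of groups that differ in age or in fixation (panels, horizontal axes in log2 units); points are limma estimates and bars ± 1 standard error. Serpine2 lies at 1.06 for OR minus YR and at -0.93 for OSR minus OR, whereas F3 (1.14) and F13a1 (0.92) lie above 0 for OSR minus OR; none passed an adjusted p of 0.05.

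The 9 genes did not vary as one group. Over the 12 arrays the correlation between the log2 signals of 2 members ranged from -0.70 (Serpine2 and F3) to 0.78 (Plaur and F13a1) over 36 pairs, with a median of 0.08 and 21 pairs above 0. All pairs share the same arrays, and without the 2 arrays of high Gapdh ratio the values for these extremes were -0.47 and 0.20, with a median of 0.02 over the pairs. The median difference of the 9 genes was 0.32 for OSR vs YSR, -0.18 for OR vs YR, 0.12 for OSR vs OR and -0.05 for YSR vs YR, where the median of all probe sets was 0.00, 0.04, -0.01 and 0.02. It was 0.15 for old vs young, 0.01 for semi-rigid vs rigid and 0.28 for the interaction, against 0.02, 0.00 and -0.03 for all probe sets. For OSR vs YSR 8 of 9 estimates lay above 0 (50.2% of all probe sets), and for OR vs YR 3 of 9 did (54.2%). For OSR vs OR 8 of 9 lay above 0 (48.8%), all but Serpine2, and for YSR vs YR 4 of 9 did (52.6%). For old vs young 6 of 9 lay above 0 (53.1%), for semi-rigid vs rigid 5 of 9 (50.5%) and for the interaction 7 of 9 (47.5%). These comparisons share groups and are not independent of each other.

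Genes with the most similar pattern over the 12 arrays were sought among 9563 genes whose brightest probe set reached the median. Besides those named above, Plau resembled Mrps33 (r = 0.92) and Mamstr (0.90) most, Plat resembled Loxl2 (0.94) and Hhipl1 (0.93), and Thbd resembled Tsen54 (0.92) and Adarb1 (0.86). Plaur resembled Gnb2 (0.97) and Eif4g1 (0.95), and F13a1 resembled Ier5l (0.96) and Dedd (0.95). Without the 2 arrays of high Gapdh ratio, r was 0.75 and 0.86 for the partners of Plaur and 0.83 and 0.89 for those of F13a1, and 0.91 to 0.95 for the partners of Plau, Plat and Thbd. Serpinb2 resembled Stxbp2 (0.92) and Lrg1 (0.85), and the second partner of Anxa2 was Gemin5 (0.89). These are the highest values out of many genes and describe these arrays only.

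Other genes of the same systems were taken from a list of 48, of which 42 had a probe set. Of the 42 probe sets, 20 lay below the median of all. No difference of the 42 passed an adjusted p of 0.05. At an unadjusted p under 0.05, 6 were higher in old than in young rats (4.70% of all probe sets) and 1, Gas6, was lower (3.89%). For OR vs YR 8 were higher (4.80%) and 2, Eno1 and Fgg, lower (3.54%). For OSR vs OR 2, Lrp1 and F2rl2, were higher (2.43%) and 5, Nid1, Fgb, Procr, Pros1 and F2r, lower (2.83%). For OSR vs YSR 2, Tfpi2 and Procr, were higher (2.03%) and 2, Vtn and Gas6, lower (2.33%), and for YSR vs YR 1, Cpb2, was higher (2.77%) and 1, Procr, lower (1.60%). For semi-rigid vs rigid 1 was higher (3.20%) and 2 lower (2.53%), and for the interaction 0 were above 0 (1.43%) and 2 below (2.37%). Both of these, Nid1 (-0.86), a basement membrane protein, and Fgb (-2.56), a fibrinogen chain with group means of 3.32 to 5.10, had adjusted p = 0.990 with limma. Other probe sets did not all follow. The Nid1 means were 11.44 in OSR and 12.05 in OR at the first probe set, and 8.68 and 8.34 at the second. OR array 1, of high Gapdh ratio, had 7.61 at the second, against 8.72 and 8.68 on the other OR arrays. For Fgb, OSR and OR had 3.32 and 5.10 at the first probe set, 3.35 and 1.94 at the second, and 1.50 and 2.15 at the third. Eno1, Fgg, F2rl2, Vtn, Gas6 and Cpb2 were named after their values were seen.

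Of these genes, Tfpi2 had the smallest p for age. It encodes an inhibitor of plasmin and of the tissue factor complex that is bound to the extracellular matrix. Its log2 signals were 11.74, 11.57 and 10.64 in OSR and 11.60, 12.09 and 11.83 in OR. In young rats they were 10.52, 10.38 and 10.40 in YSR and 10.03, 10.61 and 10.89 in YR. The old groups lay above the young group of the same fixation without overlap, and old minus young was 1.11 (standard error 0.19, adjusted p = 0.111 with limma). Vwf, the endothelial and platelet protein that tethers platelets, gave 1.14 (standard error 0.31, adjusted p = 0.289 with limma), with means of 9.48 ± 0.71 in OSR, 9.83 ± 0.51 in OR, 8.59 ± 0.42 in YSR and 8.45 ± 0.86 in YR (SD, n = 3 arrays each). Pros1, which encodes the cofactor protein S, gave 0.43 (standard error 0.12, adjusted p = 0.307 with limma). All 6 platelet markers (median 1.08) and all 8 endothelial markers (median 0.45) had old minus young differences above 0 as well, against 53.1% of all probe sets. The part of these cells in the Tfpi2, Vwf and Pros1 differences was not tested.

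The direct partners of the 9 genes were read beside them. Procr, the endothelial receptor that presents protein C to thrombomodulin, had log2 signals of 9.98, 10.21 and 9.82 in OSR, 10.45, 10.42 and 10.31 in OR, 9.38, 9.37 and 9.80 in YSR, and 9.78, 10.30 and 9.88 in YR. Old minus young was 0.45 (standard error 0.12, adjusted p = 0.283 with limma), the same sign as for Thbd, and semi-rigid minus rigid was -0.43 (standard error 0.12, adjusted p = 0.845 with limma), where Thbd gave 0.01. Tfpi, the inhibitor of the tissue factor pathway, gave 0.33 for old minus young (standard error 0.15, adjusted p = 0.581 with limma), with means of 10.74 ± 0.46 in OSR, 11.16 ± 0.17 in OR, 10.56 ± 0.17 in YSR and 10.69 ± 0.28 in YR (SD, n = 3 arrays each). Its mean was highest in OR, where F3 was lowest, and its OSR and OR signals overlapped.

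Between the fixations, the smallest p-values belonged to Lrp1 and F2r. Lrp1, the endocytic receptor that removes complexes of plasminogen activators with their inhibitors, had means of 12.16 ± 0.21 in OSR, 11.48 ± 0.31 in OR, 12.25 ± 0.34 in YSR and 11.84 ± 0.15 in YR (SD, n = 3 arrays each). Semi-rigid minus rigid was 0.55 (standard error 0.14, adjusted p = 0.818 with limma). The second Lrp1 probe set was dim, with means of 6.19 in OSR, 6.50 in OR, 6.60 in YSR and 5.69 in YR. There OSR lay below OR on average, the other way from the first. F2r, a thrombin receptor, had means of 9.78 ± 0.46 in OSR, 10.70 ± 0.11 in OR, 9.91 ± 0.30 in YSR and 10.22 ± 0.24 in YR (SD, n = 3 arrays each). Semi-rigid minus rigid was -0.62 (standard error 0.16, adjusted p = 0.818 with limma), and in old rats all OSR arrays lay below all OR arrays.

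**Figure D4:**
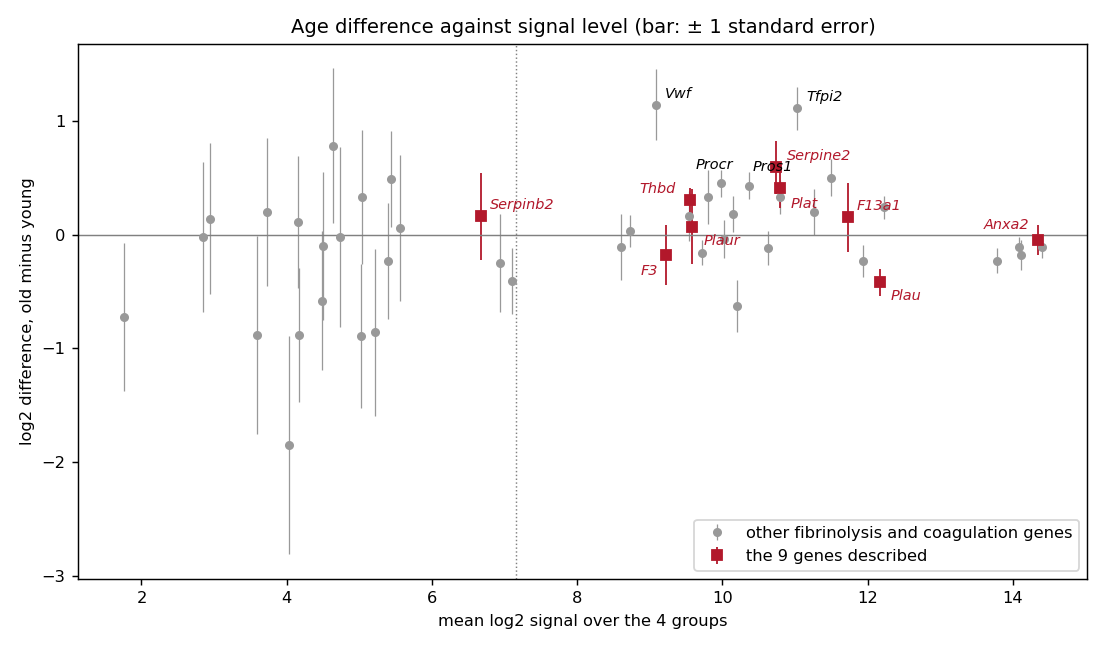
Old minus young difference (log2, vertical axis) against the mean log2 signal of the 4 groups (horizontal axis) for the 9 genes (squares) and the 42 other genes of fibrinolysis and coagulation (circles), with bars of ± 1 standard error; the dotted line is the median of all probe sets, 7.16. Tfpi2 (1.11) and Vwf (1.14) lie above all 9 genes, of which Serpine2 (0.59) is the highest and Plau (-0.42) the lowest; bars are widest at low signal.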

How the data were processed

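Hematoma RNA of 12 pools (4 groups of 3, each pool of 3 animals) was hybridized to Affymetrix rat arrays. The authors deposited linear signal intensity values for 31099 probe sets, whose processing notes name GCOS 1.2. Every array had the same trimmed mean with 2% left out at each end. The methods name PLIER, and those summaries were not used here. Signals ranged from 0.1 to 99658.6, those under 1 were set to 1, and log2 was taken. The 57 control probe sets were left out. The platform annotation gave 1 gene symbol for 20832 probe sets (20764 with an entry among RefSeq rat genes), several for 436 and none for 9831.

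Group means were compared with limma 3.58.1 (lmFit and trended eBayes) (R 4.3.3, and data.table in version 1.17.8), with p-values adjusted by Benjamini-Hochberg over 31042 probe sets. The model was tested on simulated data. Tables and plots used Python 3.11.15, pandas 2.3.3, numpy 2.4.6 and matplotlib 3.10.9. All 9 genes were named, with statistics for comparisons of unadjusted p under 0.05 or, failing that, of smallest p. Other genes of the systems were counted, and up to 4 per comparison were named for age, fixation and the interaction, with S100a10, Procr and Tfpi, and 1 further gene of the list is not reported here. The members and lists were chosen with earlier results of these data known. Alternatives were quantile normalization, median centring, a pseudocount of 16, a filter on dim probe sets, no trend, only the arrays of a pair, the methods' test, the replicate block, the second probe set, and leaving out arrays. P-values measure the spread between pools. Probe positions were not analysed here.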

Additional observations from a re-analysis of the deposited data

How the results depend on the processing

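The number of the 9 genes called stayed at 0 in all 151 recomputed counts. Of 294 alternative values of the 14 differences given with statistics, 289 kept their direction and none passed the threshold. The exceptions were Plau between old and young (0.07 at the second probe set, against -0.42), Anxa2 between OR and YR (0.19 at the second probe set and -0.22 to 0.05 when single arrays were left out, against -0.10) and Plaur between OSR and OR (-0.01 without the 2 arrays of high Gapdh ratio and -0.01 to 0.94 when single arrays were left out, against 0.61), where OR array 1 was decisive. Serpine2 between OSR and OR ranged from -1.38 to -0.66, F3 between OSR and OR from 0.79 to 1.61 and F13a1 between OSR and OR from 0.51 to 1.12. Median centring moved the old minus young difference of every probe set by -0.11. Replicate numbers were not treated as a pairing in the main model. Deviations of same-numbered arrays had a median correlation of 0.019 over 18 pairs (-0.412 to 0.405), against 0.020 over the other 36 (-0.416 to 0.57). The pairs share arrays and spread widely, so that these medians cannot exclude a shared handling of same-numbered pools. With the replicate block, 0 of the 9 genes were called in each of the 7 comparisons. Over all probe sets, calls ranged over the alternatives from 0 to 80 for old vs young (80 without OSR array 3, against 2), 0 to 27 for YSR vs YR (27 without the 2 arrays of high Gapdh ratio, against 0), 0 to 14 for OR vs YR (14 with only the arrays of the pair, against 1), 0 to 3 for semi-rigid vs rigid, 0 to 1 for OSR vs OR and for OSR vs YSR, and were 0 for the interaction. With 3 arrays per group and no detection calls used, signals of dim probe sets such as those of Serpinb2 and the second Plaur probe set have wide errors.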
